A study of Mus musculus with 24 samples.

Results

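BMP inhibitors and feedback targets were followed in hind limb digit tips of C57BL/6 mice, an inbred laboratory strain, aged 10 to 12 weeks. The set held 10 genes, taken by symbol as BMP antagonists and response genes: the secreted antagonists Nog, Chrd, Chrdl1, Grem1 and Fst, the membrane pseudoreceptor Bambi, the inhibitory SMADs Smad6 and Smad7, and the response genes Id1 and Id3. All 10 were found among the 15055 genes of the deposited table. The 6 groups of 4 libraries combine an amputation level, distal or proximal, with a day of collection, 12, 14 or 21 days after the cut. Total RNA of bone, cartilage, marrow, dermis and epidermis together was sequenced after removal of ribosomal RNA. No unamputated group is analysed here. Whether the 4 libraries of a group are from different mice is not in the labels; a p-value below therefore reflects variation among libraries, part of which may be technical. After distal amputation the adult mouse digit tip is known to regrow, and after proximal amputation it is known not to.

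Bone morphogenetic proteins are secreted ligands of the TGF-beta family. They bind type I and type II receptor kinases, which phosphorylate SMAD1, SMAD5 and SMAD9, and these enter the nucleus with SMAD4 to switch on target genes. Noggin, chordin, gremlin and follistatin bind ligands outside the cell and keep them from their receptors. BAMBI, SMAD6 and SMAD7 act at or below the receptor and are themselves induced by the pathway, so they form negative feedback. Id1 and Id3 encode helix-loop-helix proteins without a DNA-binding region, are early BMP targets, and are widely read as reporters of signalling. In the digit and in the nail, the pathway is known for its part in bone formation and in growth of the nail organ.

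Values below are the deposited normalised values, whole numbers whose sequencing depth is unknown; table totals ran from 15264829 to 19351055. Log2 changes carry moderated standard errors, and a gene is called where its Benjamini-Hochberg adjusted p in limma, over all 15055 genes, is under 0.05. Of the fixed markers of the labelled tissue, all 8 of bone, all 8 of epidermis and all 8 of endothelium had a value above 0 in every library, while the cartilage gene Matn3 stood at 0 in at least 1 library. The listed cartilage marker Cnmd and the listed marrow markers Mpo and Elane were absent from the deposited table. These are bulk samples, so fewer cells of a type and less RNA per cell cannot be told apart.

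Start regions were looked at because the response genes are SMAD targets. RefSeq windows (GRCm38.p6) of 250 bases before and 50 after the start were matched for 4 of the 10 genes: Smad6, Id3, Grem1 and Chrd. Both strands were searched for the palindromic SMAD box GTCTAGAC, the GC-rich SMAD box GGCGCC and the short box CAGAC, whose other strand reads GTCTG. None of these motifs contains another, and capitals mark the matches. The Smad6 window held GTCTAGAC across the annotated start, from 4 bases before it, a motif that 0.21% of 32851 windows hold. Id3 held CAGAC and GTCTG, the first bases of which lay 167 and 68 bases before the start; 49.59% of windows hold that box. Grem1 and Chrd each held GGCGCC, as did 11.87% of windows. The short box was also found in the windows of Grem1, 219 bases before and 18 after the start, and of Chrd, 8 after it; those matches are not shown. Distances are from the RefSeq start, which for Id3 lies 325 bases downstream of the start of the GENCODE gene given below, so that the stretch printed for Id3 is inside the GENCODE gene. For Smad6 and Chrd the starts were the same, and for Grem1 they lay 2 bases apart. The stretches are given from 5′ to 3′ on the gene's strand, the first 3 of 30 bases around the match and the last of 250 bases before the start.
Smad6, chr9:64022045-64022074, minus strand: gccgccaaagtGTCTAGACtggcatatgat
Grem1, chr2:113758709-113758738, minus strand: cgcggcggcgacGGCGCCtgaccaatggag
Chrd, chr16:20732912-20732941, plus strand: cgggccagagccGGCGCCtagggcactaaa
Id3, chr4:136143572-136143821, plus strand: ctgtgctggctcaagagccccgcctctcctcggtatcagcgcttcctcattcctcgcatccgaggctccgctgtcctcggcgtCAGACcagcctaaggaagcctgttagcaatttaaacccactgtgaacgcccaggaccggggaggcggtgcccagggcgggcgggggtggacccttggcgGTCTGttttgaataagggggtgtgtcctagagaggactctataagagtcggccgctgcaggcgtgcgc
These matches describe the letters of the windows and say nothing of binding.

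By level per kilobase of gene length, the set fell into an abundant and a scarce part. Id1 had a mean of 1101 per kilobase over the 24 libraries and Id3 of 1007, above 96.7% and 96.3% of all genes. Bambi, Fst, Smad7 and Smad6 followed at 387, 336, 272 and 194 per kilobase. Nog had 46.2 per kilobase, and Chrd, Chrdl1 and Grem1 had 17.0, 15.5 and 12.7, the last above 12.9% of all genes. The scarce genes were thus the ligand traps other than Fst, and the abundant ones the intracellular and membrane members with Fst. Between the highest and the lowest of the 6 group means, Chrdl1 varied 4.63-fold, Bambi 4.58-fold and Grem1 3.79-fold, against 1.56-fold for Smad7, 1.70-fold for Id1 and 1.88-fold for Id3.

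**Figure D1:**
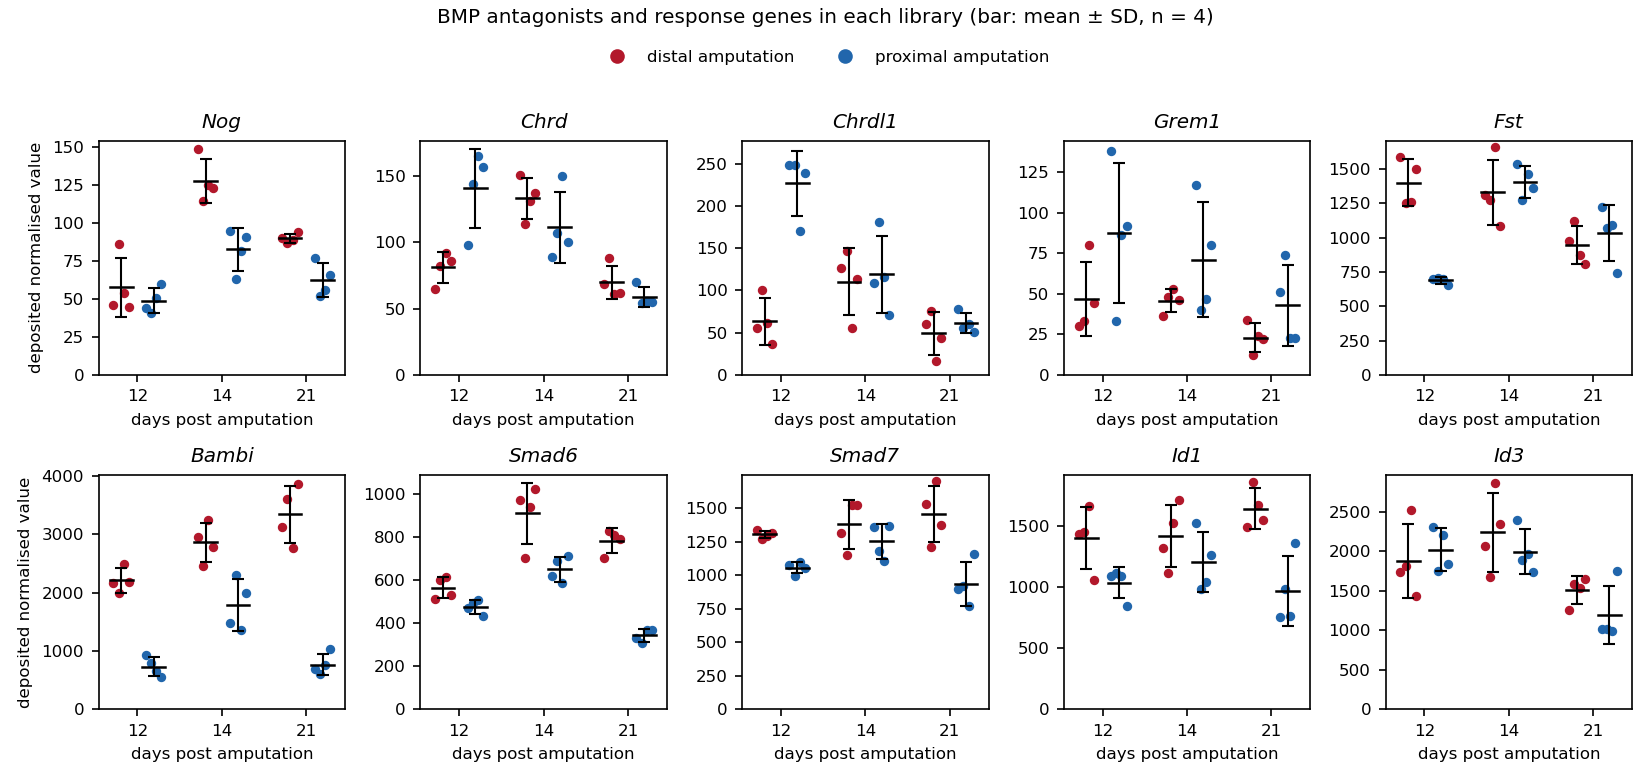
Deposited normalised value (vertical axis, from 0) of each gene in each library against days post amputation, distal amputation in red left of proximal amputation in blue; bars give the mean and SD of 4 libraries. Bambi lies higher in every distal library than in every proximal library of the same day, and Fst in proximal libraries at 12 days lies between 652 and 706, below all other groups.

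Bambi, which encodes a pseudoreceptor that resembles a type I receptor without the kinase (chr18:3507923-3516404, plus strand, mm10), was the member with the largest difference between levels at 21 days. At 12 days it stood at 2161, 1994, 2499 and 2181 in distal libraries, against 927, 792, 655 and 547 in proximal libraries. Values at 14 days were 2959, 2458, 3248 and 2786 in distal libraries, against 1479, 2309, 1362 and 1986 in proximal libraries. Every distal library was above every proximal library on both days, with a narrow gap at 14 days. At 21 days the values were 3130, 3615, 2766 and 3857 in distal libraries, against 686, 594, 750 and 1026 in proximal libraries. The differences were 3.07-fold at 12 days (log2 1.62 ± 0.18, adjusted p = 1.965e-06), 1.63-fold at 14 days (0.71 ± 0.18, adjusted p = 0.0241) and 4.42-fold at 21 days (2.15 ± 0.18, adjusted p = 1.03e-07). The 14 day call ended without distal replicate 3 (0.64), proximal replicate 1 (0.63) or proximal replicate 3 (0.59), and in a fit of those groups alone (adjusted p = 0.0586). In order, distal 21, 14 and 12 days came first, then proximal 14, 21 and 12 days; neighbours overlapped in their ranges except proximal 14 days and proximal 21 days. A processed pseudogene, Bambi-ps1, is annotated, and the labels do not state how reads shared with it were assigned, so its values are uncertain to that extent.

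The inhibitory SMADs were both higher after distal amputation at 21 days, Smad6 by the larger factor. Smad6 (chr9:63953076-64022059, minus strand) favours BMP receptors as its target, whereas Smad7 (chr18:75367529-75395935, plus strand) blocks both BMP and TGF-beta receptors. Smad6 stood at 513, 602, 614 and 532 in distal libraries at 12 days, against 472, 491, 507 and 433 in proximal libraries. These ranges were separate, but the difference of 0.25 ± 0.10 on the log2 scale was not called (adjusted p = 0.0920). At 14 days Smad6 had 973, 704, 939 and 1025 in distal libraries, against 617, 690, 588 and 710 in proximal libraries. Only distal replicate 2 fell within the proximal range; the difference was 1.39-fold (0.47 ± 0.10, adjusted p = 0.0121), and a fit of those groups alone did not call it (adjusted p = 0.0762). By 21 days the values were 702, 830, 811 and 792 in distal libraries, against 331, 307, 370 and 367 in proximal libraries. This was 2.28-fold (1.19 ± 0.10, adjusted p = 1.52e-07), the second difference of the set in size on that day.

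Smad7 was the steadiest member, with group means between 935 ± 162 and 1455 ± 210 (SD, n = 4). It had 1336, 1273, 1296 and 1314 in distal libraries at 12 days, against 1075, 997, 1098 and 1057 in proximal libraries. The ranges were separate and tight, and the difference of 0.30 ± 0.11 fell short of the threshold (adjusted p = 0.0609); it passed in a fit of those groups alone (adjusted p = 0.00582) and with sample quality weights (adjusted p = 0.0432). At 14 days the level difference was 0.14 (95% interval -0.10 to 0.37), and the ranges overlapped. At 21 days Smad7 had 1530, 1211, 1703 and 1377 in distal libraries, against 895, 921, 768 and 1157 in proximal libraries, without overlap (1.56-fold; 0.64 ± 0.11, adjusted p = 0.000651).

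Among the secreted antagonists, Chrd and Chrdl1 were lower and Fst was higher after distal amputation at 12 days. Chrd encodes chordin, which holds BMPs in complexes that tolloid proteases release (chr16:20733127-20742384, plus strand). It had 65, 82, 92 and 86 in distal libraries at 12 days, against 98, 144, 165 and 157 in proximal libraries, which did not overlap (1.71-fold lower; -0.77 ± 0.18, adjusted p = 0.00352). At 14 and 21 days Chrd differed by 0.28 (95% interval -0.09 to 0.64) and 0.24 (-0.12 to 0.605), neither called. The annotation places Thpo on the opposite strand over part of Chrd, and since a stranded count is not stated, reads of the pair cannot be told apart.

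Chrdl1, a chordin-like antagonist on the X chromosome (chrX:143285674-143394262, minus strand), showed the largest difference of the set at 12 days. It stood at 55, 101, 61 and 36 in distal libraries, against 249, 249, 170 and 239 in proximal libraries. All distal libraries were lower than all proximal ones, by 3.74-fold on average (-1.90 ± 0.39, adjusted p = 0.00141). By 14 days the group means were 110.5 ± 39.4 in distal libraries and 119 ± 45.7 in proximal libraries, and at 21 days 49.0 ± 25.6 and 61.0 ± 11.9 in the same order (SD, n = 4). On those days the ranges overlapped and the differences of -0.12 (95% interval -0.92 to 0.68) and -0.49 (-1.29 to 0.31) were not called.

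Fst, the gene of follistatin, which binds activins with high affinity and also some BMPs (chr13:114452290-114458951, minus strand), stood out by a single low group. At 12 days it had 1590, 1255, 1259 and 1500 in distal libraries, against 697, 706, 697 and 652 in proximal libraries. The difference was 2.02-fold (1.02 ± 0.14, adjusted p = 1.904e-05), with every distal library above every proximal one. At 14 days the means were 1329.5 ± 240 in distal libraries and 1409 ± 116 in proximal libraries, and at 21 days 945.5 ± 137 and 1032 ± 204 in that order (SD, n = 4). The differences of -0.10 (95% interval -0.38 to 0.19) and -0.11 (-0.39 to 0.17) were not called. Proximal 12 days was the lowest of the 6 groups and the sole one whose range was separate from its neighbour. An antisense transcript, Gm47040, is annotated over Fst, with the same limit.

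Nog, the gene of noggin (chr11:89300638-89302332, minus strand), was somewhat higher after distal amputation on the later days. Values at 14 days were 149, 115, 125 and 123 in distal libraries, against 95, 63, 82 and 91 in proximal libraries. At 21 days they were 90, 87, 89 and 94 in distal libraries, against 77, 52, 56 and 66 in proximal libraries. The groups did not overlap on either day, with differences of 1.55-fold (0.63 ± 0.18, adjusted p = 0.0439) and 1.44-fold (0.53 ± 0.18, adjusted p = 0.0469). Both calls lay close to the threshold: each ended in 7 of the 8 fits that left out a library (values of 0.51 to 0.705 at 14 days, the exception being proximal replicate 4, and of 0.45 to 0.56 at 21 days, the exception being proximal replicate 1). At 12 days Nog had means of 57.8 ± 19.3 in distal libraries and 49.0 ± 8.45 in proximal libraries (SD, n = 4), which was not called (0.20 ± 0.18).

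Grem1, the gene of gremlin, an antagonist of BMP2, BMP4 and BMP7 in the limb bud (chr2:113746164-113758646, minus strand), was the scarcest and the most uneven member. It ranged from 30 to 80 in distal libraries at 12 days, against 33 to 138 in proximal libraries. At 21 days the ranges were 12 to 34 in distal libraries and 23 to 74 in proximal libraries. The mean was lower after distal amputation on each day, by -0.83 ± 0.44, -0.51 ± 0.44 and -0.78 ± 0.44 on the log2 scale, and none of these was called (adjusted p = 0.192, 0.556 and 0.232). Grem1 changed by -1.03 ± 0.44 from 14 to 21 days after distal amputation, without overlap. It changed by -1.02 ± 0.44 from 12 to 21 days after proximal amputation. Neither was called in limma (adjusted p = 0.0728 and 0.0852). The first was called in a fit of those groups alone or without distal 21 day replicate 1. The second was called without proximal 12 day replicate 2 or proximal 21 day replicate 2. Its standard deviation within groups, 0.67 on the log2 scale, was larger than that of its 6 group means, 0.63, the only such case in the set.

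Of the response genes Id1 (chr2:152736251-152737410, plus strand) and Id3 (chr4:136143497-136145755, plus strand), only Id1 was called between levels, at 21 days. Whether the level difference itself differs between these genes was not tested. Id1 at 21 days stood at 1490, 1860, 1675 and 1546 in distal libraries, against 753, 981, 761 and 1363 in proximal libraries. The groups did not overlap, at 1.75-fold (0.81 ± 0.18, adjusted p = 0.00398). At 12 days its means were 1401 ± 253 in distal libraries and 1036 ± 128 in proximal libraries (SD, n = 4), a difference of 0.43 ± 0.18 that was not called (adjusted p = 0.0965) except without distal replicate 4 (0.56, adjusted p = 0.0391). At 14 days it differed by 0.24 (95% interval -0.13 to 0.61).

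Id3 was called between levels on no day, with differences of -0.13 (95% interval -0.51 to 0.26) at 12 days, 0.15 (-0.24 to 0.54) at 14 days and 0.38 (-0.01 to 0.76) at 21 days. At 21 days it had 1251, 1587, 1538 and 1643 in distal libraries, against 1014, 1016, 983 and 1747 in proximal libraries. Proximal replicate 4 was thus higher than every distal library, while the other 3 proximal libraries were lower than all of them. Without that library Id3 was called higher after distal amputation (0.58, adjusted p = 0.0282). The same library also had the highest Bambi, Smad7 and Id1 and the lowest Fst of its group. The calls of Bambi, Smad6, Smad7 and Id1 at 21 days were kept without it.

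Counted over the set, the calls went both ways at 12 days and were all higher after distal amputation at 14 and 21 days. At 12 days 4 of 10 were called, with Bambi and Fst higher and Chrd and Chrdl1 lower, where 20.3% of all genes were called; 6 of 10 did not overlap between levels, against 23% of all genes. At 14 days 3 of 10 were called, Bambi, Nog and Smad6, all higher, against 5.39% of all genes, and 2 of 10 did not overlap, against 11.3%. A fit of the 14 day groups alone called 0 of the 10 in limma, 3 having an unadjusted p under 0.05 (adjusted p between 0.0586 and 0.0762 for these 3), and 261 genes in place of 811. At 21 days 5 of 10 were called, Bambi, Smad6, Smad7, Id1 and Nog, all higher, against 17.6% of all genes, and 5 of 10 did not overlap, against 18.8%. Median log2 differences of the 10 were 0.22, 0.20 and 0.45 on the 3 days, beside -0.03, 0.0005 and -0.05 over all genes. Bambi alone was called on all 3 days.

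**Figure D2:**
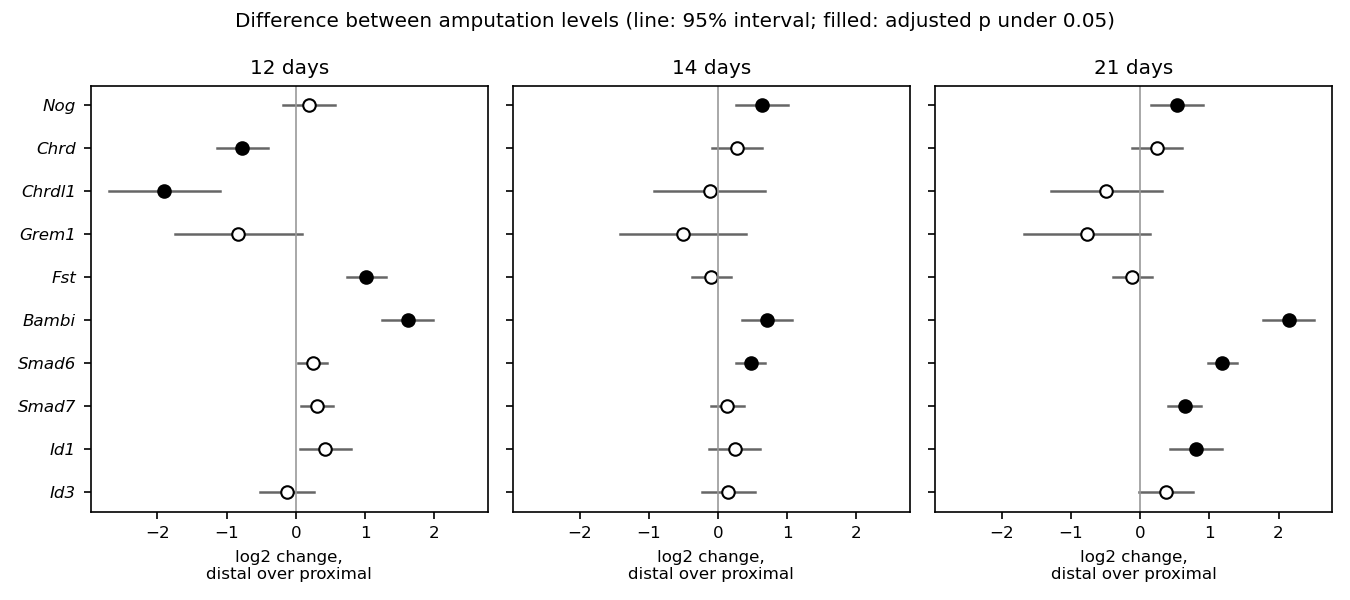
Log2 change of distal over proximal amputation (horizontal axis) for each gene at 12, 14 and 21 days; lines are 95% intervals from limma, and filled points have an adjusted p under 0.05. Chrd and Chrdl1 lie left of 0 and Fst and Bambi right of it at 12 days; at 21 days Bambi (2.15) and Smad6 (1.19) lie farthest right and no filled point lies left of 0.

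Over time after distal amputation, the means of Nog, Chrd, Smad6, Id3 and Chrdl1 were highest at 14 days. Those of Bambi, Smad7 and Id1 were highest at 21 days. The rises of Id3 and Chrdl1 from 12 to 14 days were not called. From 14 to 21 days, neither the Smad6 fall (-0.20 on the log2 scale) nor the rises of Bambi (0.22), Smad7 (0.08) and Id1 (0.22) were called. The Smad6 fall was called in limma without distal 14 day replicate 2 (-0.32, adjusted p = 0.009011). From 12 to 14 days 3 of 10 were called, all higher, against 19.4% of all genes: Nog by 2.26-fold (1.18 ± 0.18, adjusted p = 0.000134), Chrd by 1.64-fold (0.71 ± 0.18) and Smad6 by 0.68 ± 0.10 on the log2 scale. From 14 to 21 days 5 of 10 were called, all lower, against 34.8% of all genes. They were Chrd (-0.93 ± 0.18), Chrdl1 (-1.27 ± 0.39), Id3 (-0.55 ± 0.19), Nog (-0.50 ± 0.18) and Fst (-0.49 ± 0.14). These comparisons share the 14 day libraries, and the Nog, Id3 and Chrdl1 calls ended without 1 of several libraries. For Chrdl1 these were distal 14 day replicate 2 (-1.10) and distal 21 day replicate 3 (-0.82). For Id3 they were distal 14 day replicates 3 (-0.43) and 4 (-0.52) and distal 21 day replicate 1 (-0.47), and for Nog all but distal 14 day replicate 2 (-0.42 to -0.52). From 12 to 21 days 4 of 10 were called, against 23.8% of all genes. Bambi (0.59 ± 0.18), Nog (0.68 ± 0.18) and Smad6 (0.47 ± 0.10) were higher and Fst was lower (-0.57 ± 0.14). The Bambi call ended without distal 12 day replicate 2 (0.54) or distal 21 day replicate 4 (0.52).

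After proximal amputation, Bambi was higher at 14 days than at 12 or 21 days, and Smad6 fell below its 12 day level by 21 days. From 12 to 14 days 4 of 10 were called, all higher, against 15.2% of all genes. Bambi was 2.43-fold higher (1.28 ± 0.18, adjusted p = 6.281e-05), Fst 2.04-fold (1.03 ± 0.14), Nog 1.67-fold (0.74 ± 0.18) and Smad6 1.37-fold (0.45 ± 0.10). From 14 to 21 days 6 of 10 were called, all lower, against 28.7% of all genes, and these were Bambi (-1.22 ± 0.18), Smad6 (-0.92 ± 0.10), Chrd (-0.89 ± 0.18), Id3 (-0.78 ± 0.19), Fst (-0.47 ± 0.14) and Smad7 (-0.43 ± 0.11). The Fst call ended without proximal 21 day replicate 4 (-0.32). Scaling by table totals ended the calls of Fst (-0.36, adjusted p = 0.07259) and Smad7 (-0.32, adjusted p = 0.0541) in this interval, and that of Smad6 from 12 to 14 days (0.36, adjusted p = 0.05026). From 12 to 21 days 5 of 10 were called, against 29% of all genes. Chrdl1 (-1.88 ± 0.39), Chrd (-1.23 ± 0.18), Id3 (-0.80 ± 0.19) and Smad6 (-0.47 ± 0.10) were lower and Fst was higher (0.56 ± 0.14), whereas Bambi differed by 0.06 (95% interval -0.30 to 0.43).

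**Figure D3:**
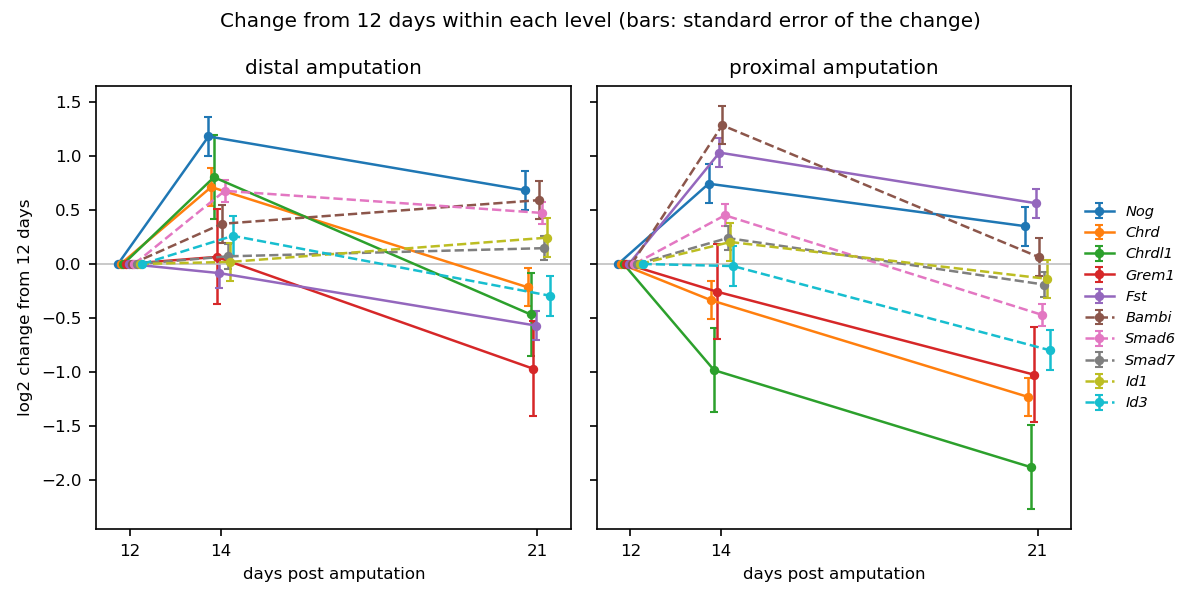
Log2 change from 12 days (vertical axis) against days post amputation for each gene, distal amputation on the left and proximal amputation on the right; bars are the standard error of the change, solid lines are secreted antagonists and dashed lines the other members. Smad6 ends above its 12 day level on the left (0.47) and below it on the right (-0.47), and Fst ends below on the left (-0.57) and above on the right (0.56).

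A test of the difference in change between 12 and 21 days called 3 of 10 members, against 14.8% of all genes. Smad6 changed by 0.47 after distal and by -0.47 after proximal amputation, a difference of 0.94 ± 0.14 (adjusted p = 0.000166). Fst changed by -0.57 after distal and by 0.56 after proximal amputation, a difference of -1.13 ± 0.19 (adjusted p = 0.000458). For Chrd the changes were -0.22 and -1.23 in that order, and the difference was 1.01 ± 0.25 (adjusted p = 0.00781). Smad6 and Fst therefore moved in opposite directions at the levels, and Chrd fell at the proximal level with no call at the distal one. Bambi (0.53, 95% interval 0.01 to 1.05) and Chrdl1 (1.41, 0.28 to 2.55) were not called after adjustment (adjusted p = 0.169 and 0.0876). The Chrdl1 difference was called with sample quality weights (1.56, adjusted p = 0.04947) and without distal 12 day replicate 2 (1.67, adjusted p = 0.04646) or distal 21 day replicate 3 (1.86, adjusted p = 0.009908).

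Ratios within a library do not depend on its scaling; the 3 pairs were picked after the values were seen, so they are given with no test. Id1 over Id3 averaged 1.098 ± 0.114 in distal libraries at 21 days and 0.816 ± 0.101 in proximal libraries (SD, n = 4). At 12 days it averaged 0.757 ± 0.0763 in distal libraries and 0.518 ± 0.0833 in proximal libraries. The ranges of the levels were separate at 12 days, and at 21 days distal replicate 4 (0.941) lay below proximal replicate 2 (0.966). At 14 days Id1 over Id3 averaged 0.642 ± 0.0825 in distal libraries and 0.605 ± 0.0977 in proximal libraries, with overlapping ranges. At proximal 21 day replicate 4, where both Id genes were high, the ratio was 0.780, inside the range of its group. Smad6 over Smad7 averaged 0.660 ± 0.0591 in distal libraries at 14 days and 0.523 ± 0.0548 in proximal libraries, with no overlap. At 12 days it averaged 0.434 ± 0.0463 in distal libraries and 0.451 ± 0.0351 in proximal libraries, and the ranges overlapped. The ranges also overlapped at 21 days, with averages of 0.549 ± 0.104 in distal libraries and 0.3755 ± 0.0742 in proximal libraries. Bambi over Smad7 averaged 2.36 ± 0.639 in distal libraries at 21 days and 0.819 ± 0.144 in proximal libraries, separate there and at 12 days, and overlapping at 14 days.

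**Figure D4:**
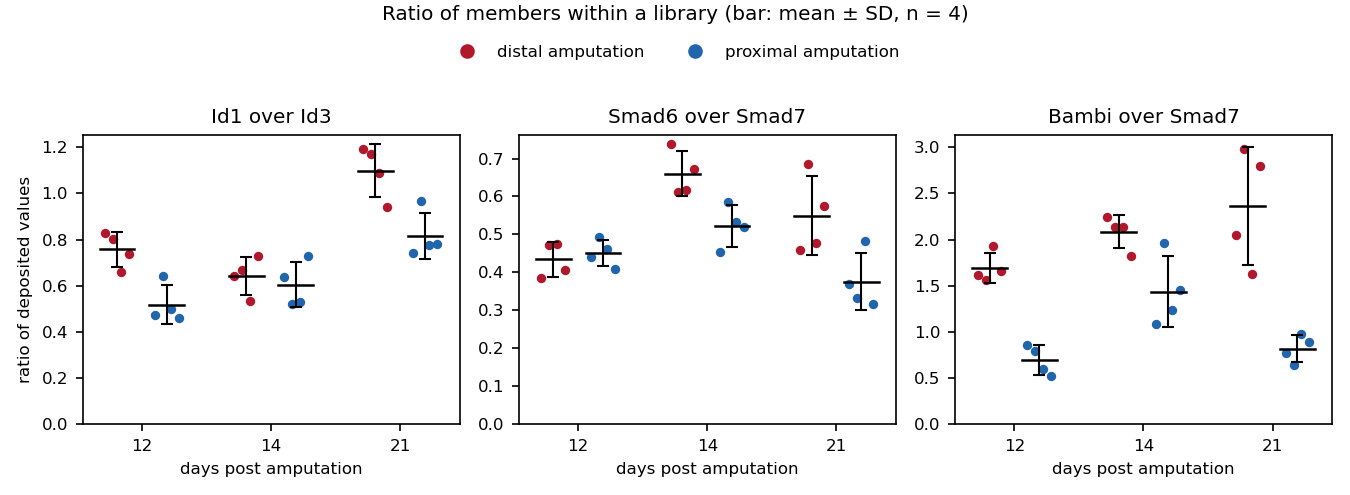
Ratio of the deposited values of 2 members within each library (vertical axis, from 0) against days post amputation, distal amputation in red left of proximal amputation in blue; bars give the mean and SD of 4 libraries. Id1 over Id3 is highest in distal libraries at 21 days, and Bambi over Smad7 lies between 0.645 and 0.977 in proximal libraries at 21 days, against 1.62 to 2.99 in distal ones.

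Likeness of pattern was described by Pearson's r of log2 values over the 24 libraries, which fall into 6 groups and share each library's scaling. The genes most like Bambi were Msx2 (0.965), Mtcl1 (0.954) and Krt90 (0.937), and the most similar member was Smad6 (0.865). For Smad6 they were Tbcel (0.915), Mtcl1 (0.915) and Me2 (0.905). Smad7 was nearest to Fras1 (0.864), Cux1 (0.856) and Pirt (0.852). Id1 was nearest to Smad7 (0.821), a fellow member, then to Mtcl1 (0.801) and Tmem151a (0.797). Id3 was instead nearest to Fbxo25 (0.860), St6galnac5 (0.854) and Serpinf1 (0.844). Chrd was nearest to Parp3 (0.957), Adgra2 (0.948) and Arhgef25 (0.937), and Chrdl1 to Igf1 (0.880), Rab3il1 (0.877) and Postn (0.868). Nog was nearest to Gucy1b3 (0.850), Zfhx3 (0.846) and Ppp4r4 (0.844). Fst (Gclc, 0.782; Eif3c, 0.780; Ipo4, 0.763) and Grem1 (Pmaip1, 0.818; Porcn and Ulbp1, 0.767 each) had the least similar nearest genes. Within the set, Bambi and Smad6 (0.865), Smad7 and Id1 (0.821), and Chrd and Chrdl1 (r = 0.7) were each other's nearest member.

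Elsewhere in the pathway, several ligands and response genes were higher after distal amputation at 21 days, and inhibitors went both ways. Of 10 measured ligands, 5 were higher and 0 lower at 21 days, with a median difference of 0.57, beside -0.05 over all genes. Bmp8a was at 322.5 ± 122 in distal libraries and 97.0 ± 14.3 in proximal libraries (1.66 ± 0.31), Bmp5 differed by 0.83 ± 0.27, Gdf6 by 0.74 ± 0.25 and Bmp4 by 0.58 ± 0.13. At 14 days 1 of 10 was called, Bmp4 (0.62 ± 0.13), and all 10 had a positive difference. At 12 days Bmp8a (1.57 ± 0.31) and Bmp7 (0.28 ± 0.09) were higher and Gdf11 was lower (-0.45 ± 0.15). Of all genes, 20.3%, 5.39% and 17.6% were called at 12, 14 and 21 days. The ligand counts at 12 and 14 days are near those shares.

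Of 14 receptors and signal-transducing SMADs, 1 was higher and 1 lower at 12 days, 1 higher at 14 days, and 1 higher and 2 lower at 21 days, which is near the 20.3%, 5.39% and 17.6% of all genes called on these days. Their median difference at 21 days was -0.23, beside -0.05 over all genes, and 7 of 14 had an unadjusted p under 0.05. Smad9, a signal transducer that is itself a BMP target, was the gene higher each time, by 0.67 ± 0.20, 0.78 ± 0.20 and 0.72 ± 0.20. Bmpr1b, a type I receptor, was lower at 12 days (-1.10 ± 0.35). At 21 days the co-receptor gene Rgma (-1.26 ± 0.23) and Smad1 (-0.28 ± 0.07) were lower.

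Of 15 other inhibitors, 4 were lower and 0 higher at 12 days, 1 was lower at 14 days, and 2 were higher and 3 lower at 21 days, beside the 20.3%, 5.39% and 17.6% of all genes; the counts at 12 and 14 days are near those shares. At 12 days Nbl1, a member of the DAN family of antagonists, was at 1064 ± 203 in distal libraries and 2558 ± 370 in proximal libraries (SD, n = 4). Its log2 difference was -1.27 ± 0.12 (standard error). On that day Fstl1, a follistatin-like gene, differed by -1.04 ± 0.11, Twsg1 by -0.32 ± 0.06 and Ski by -0.25 ± 0.08. Nbl1 was lower again at 14 days (-0.44 ± 0.12) and at 21 days (-0.49 ± 0.12). At 21 days Sostdc1 was lower (-1.16 ± 0.28), and Pmepa1, which restrains TGF-beta receptor signalling, was higher (0.53 ± 0.16) with overlapping groups and 0.34 without distal replicate 3, which was not called.

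Of 12 other response genes, 2 were higher and 1 lower at 12 days, 4 higher and 0 lower at 14 days, and 5 higher and 1 lower at 21 days. Of all genes, 20.3%, 5.39% and 17.6% were called on these days, and the count at 12 days is near that share. Msx2, a homeobox target of BMPs, was higher each time and stood at 982 ± 285 in distal libraries and 191 ± 42.9 in proximal libraries at 21 days (2.34 ± 0.27). Hey1 was higher at 12 days (1.34 ± 0.25) and at 21 days (0.94 ± 0.25), and Msx1 at 21 days (0.85 ± 0.23). At 14 days Runx2, the osteoblast transcription factor, was higher by 1.02 ± 0.25, Tbx2 by 0.92 ± 0.19 and Atoh8 by 0.69 ± 0.20. Gata3 was lower at 12 days (-0.80 ± 0.21) and 21 days (-0.81 ± 0.21).

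Several of these pathway calls ended when 1 library was left out. At 12 days those of Bmp7, Gdf11, Smad9, Bmpr1b and Ski ended in 3 to 5 of 8 such fits. At 14 days those of Smad9, Nbl1, Runx2, Msx2 and Atoh8 ended in 4 to 7 of 8, while Bmp4 and Tbx2 kept theirs. At 21 days those of Bmp5, Gdf6, Smad9 and Pmepa1 ended in 2 to 6 of 8, that of Msx1 without proximal replicate 2 (0.70) and that of Gata3 without distal replicate 1 (-0.58). The calls of Bmp8a, Nbl1, Msx2 and Hey1 at both 12 and 21 days held in all 8.

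Markers of several tissues also differed between the levels, where 20.3%, 5.39% and 17.6% of all genes were called at 12, 14 and 21 days. Of 8 nail matrix and hard keratin markers, a list that itself holds Msx2 and Lef1, 7 were higher after distal amputation both at 12 and at 21 days. Their summed level was 88342 to 136469 in distal libraries at 12 days, against 16578 to 50498 in proximal libraries, and 123337 to 317819 in distal libraries at 21 days, against 42559 to 109282 in proximal libraries. At 12 days 6 of 8 fibroblast and mesenchyme markers were lower after distal than after proximal amputation, as were Chrd and Chrdl1. The fibroblast sums were 93656 to 134839 in distal libraries and 224615 to 266968 in proximal libraries. Of 7 cartilage markers, 3 were lower on that day, with sums of 1791 to 3614 in distal libraries and 5396 to 11352 in proximal libraries. No measured marker of these lists other than Matn3 stood at 0 in any library. The part of these lists in the members' differences between levels was not tested. At 21 days 3 of 7 cartilage markers were higher, with sums of 1655 to 3625 in distal libraries and 767 to 2544 in proximal libraries. Of 8 epidermis markers 2 were then lower and 0 higher, and of 8 fibroblast markers 2 were higher and 1 lower. In the macrophage and marrow list 1 of 6 was lower, as was 1 of 6 pericyte and smooth muscle markers. Several fits that left out 1 library ended the 21 day calls of the cartilage markers Col9a2 and Matn3 and of the nail marker Hoxc13. Without proximal replicate 2, Matn3 differed by 1.175 in place of 2.16. Such fits also ended the 21 day calls of the epidermis markers Ivl and Krt5, the fibroblast marker Twist2 and the pericyte marker Des. The 12 day calls of the cartilage marker Col2a1 and the fibroblast marker Pdgfra also ended in several such fits. At 14 days 2 of 8 fibroblast markers and 1 of 8 nail markers were higher. All 8 bone markers then had a positive difference, with a median of 0.83; limma called 0 of them, and 4 had an unadjusted p under 0.05. The bone sums on that day were 255825 to 527035 in distal libraries and 277442 to 460572 in proximal libraries. Of 8 epidermis markers 0 had a positive difference at 14 days, with a median of -0.47. There too limma called 0, and 3 had an unadjusted p under 0.05. Of 8 markers of endothelium, where Smad6, Id1 and Id3 are known to be expressed, limma called 0 between levels on any day; 0, 0 and 2 had an unadjusted p under 0.05 at 12, 14 and 21 days. Their sums at 21 days were 2123 to 3931 in distal libraries and 3324 to 4877 in proximal libraries.

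Markers also changed over time, some with the called members and some the other way. After distal amputation, 2 of 8 epidermis markers were lower and 0 higher from 12 to 14 days (median -0.42). From 14 to 21 days 4 of 8 were higher and 0 lower (median 0.52). From 12 to 21 days after distal amputation, Bambi, Nog and Smad6 were higher and Fst lower. In that interval 4 of 8 endothelial, 4 of 8 bone, 2 of 8 fibroblast and 3 of 6 macrophage and marrow markers were lower. Of 7 cartilage markers, 1 was higher. From 12 to 14 days after distal amputation, when Nog, Chrd and Smad6 were higher, 6 of 8 fibroblast, 4 of 8 bone, 4 of 7 cartilage and 2 of 6 pericyte and smooth muscle markers were higher. The fibroblast sums were 93656 to 134839 at 12 days and 177322 to 251311 at 14 days. From 14 to 21 days, when the called members were all lower, 8 of 8 endothelial, 8 of 8 bone and 7 of 8 fibroblast markers were lower after distal amputation, and 7, 7 and 6 of 8 after proximal amputation. In the same interval 4 of 7 cartilage, 4 of 6 pericyte and 4 of 6 macrophage and marrow markers were lower after distal amputation, and 6 of 7, 3 of 6 and 1 of 6 after proximal amputation. Of the 8 nail markers, 4 were lower after proximal amputation, with a median change of -1.25 beside the Bambi change of -1.22, and 0 were called after distal amputation, where 0 also had an unadjusted p under 0.05. The endothelial sums were 4719 to 8131 at 14 days and 2123 to 3931 at 21 days after distal amputation, and 6090 to 8820 and 3324 to 4877 on the same days after proximal amputation. From 12 to 14 days after proximal amputation, when Bambi, Fst, Nog and Smad6 were higher, 8 of 8 nail markers and 4 of 8 endothelial markers were higher; the nail sums were 16578 to 50498 at 12 days and 109977 to 261111 at 14 days. In the test of the difference in change between 12 and 21 days, which called Chrd, Smad6 and Fst, 5 of 7 cartilage markers (median 2.20) and 5 of 8 fibroblast markers (median 0.84) were called higher. The nail markers had a median of -1.17 in that test, beside 0.53 for Bambi and 0.94 for Smad6. Of these 8 markers limma called 0, and 4 had an unadjusted p under 0.05. From 12 to 21 days after proximal amputation 7 of 8 fibroblast markers were lower. In that interval 5 of 8 nail markers were higher and 0 lower (median 1.78), beside changes of 0.06 for Bambi and -0.47 for Smad6. Of all genes, 19.4%, 34.8% and 23.8% were called from 12 to 14, 14 to 21 and 12 to 21 days after distal amputation. After proximal amputation the shares were 15.2%, 28.7% and 29% in that order. In the test of the difference in change the share was 14.8%. The part of these markers in the members' changes was not tested.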

How the data were processed

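RNA-seq values of 24 libraries were used. For the authors' pipeline, cutadapt, STAR 2.5.4b, Subread and featureCounts 1.6.3 are listed with build mm10 in the submitters' processing notes, which give no order. The unit of the deposited whole numbers was taken to be a normalised, rounded score: their median-ratio factors lie between 0.966 and 1.042, although no label or header records the step. The other deposited column used, gene length in bases, served for levels per kilobase. Depth is unknown, so no counting interval was computed; whether an earlier adjustment also narrowed the spread within groups was not tested. log2(value + 1) of 15055 genes entered a linear model in limma 3.58.1 (R 4.3.3; lmFit, eBayes with a trend; 18 residual and 3.91 prior degrees of freedom) over 6 group means, with no filter; the fit was tested on simulated data. Fold changes are on this scale, which understates changes of low genes. Gene coordinates are GENCODE M21 on GRCm38, which is mm10. Alternatives were other scalings, pseudocounts, a filter, only the compared groups, sample quality weights, a replicate block and leaving out each library. The members, the lists, the tests and the alternatives were chosen with earlier results of these data known. By the rule for named genes, all members are described, up to 4 called genes of each other pathway list per level comparison are named, and the 3 genes with the highest Pearson's r are given for each member. The values of 1 called gene of the other inhibitors are not reported here.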

Additional observations from a re-analysis of the deposited data

Results flagged for a closer look

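Of 60 combinations of member and group, 5 held a library far from the other 3; chance flags about 1 in 20 groups. In proximal libraries at 21 days, Id3 stood at 1747 in replicate 4, against 983 to 1016 in the others, and Chrd at 70 in replicate 1, against 54 to 56. In proximal libraries at 12 days, Chrdl1 was at 170 in replicate 3, against 239 to 249, Fst at 652 in replicate 4, against 697 to 706, and Id1 at 845 in replicate 4, against 1088 to 1116.

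The change from 12 to 21 days differed between distal and proximal amputation by a test of the difference itself for Chrd (1.01), Fst (-1.13) and Smad6 (0.94 on the log2 scale).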

How the results depend on the processing

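Over 10 comparisons and 10 members, 1680 values were recomputed: 1583 kept their direction and side of the threshold, 45 lost a call, 23 gained one, and 29 changed sign, none of which had been called. A filter at a mean of 50 and pseudocounts of 0.5 and 8 changed none of 100 values each. With table totals, Id1 from 12 to 14 days after distal amputation became -0.0055 and the level difference of Grem1 in the 12 to 21 day change -0.0353; with sample quality weights, Id3 from 12 to 14 days after proximal amputation became 0.0225. Table totals moved the median of all genes at 21 days to -0.19, with 627 of 4186 called genes higher, against 1237 of 2656 as reported, and ended 5 member calls: Nog between levels at 21 days (0.39, adjusted p = 0.09065), Bambi from 12 to 21 days after distal amputation (0.52), and, after proximal amputation, Smad6 from 12 to 14 days (0.36) and Smad7 (-0.32) and Fst (-0.36) from 14 to 21 days. Members called between levels at 14 days were 0 by limma in a fit of those groups alone (3 at an unadjusted p under 0.05), against 3; the cause was not tested.

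Leaving out a library gave 1 to 3 members called between levels at 14 days, with 1 without distal replicate 3, proximal replicate 1 or proximal replicate 3, and 3 to 5 from 14 to 21 days after distal amputation, with 3 without distal 14 day replicate 3 or 4 or distal 21 day replicate 3. Uncalled values that changed sign ranged as follows. Between levels, Nog at 12 days ran from -0.009 to 0.2975 and Chrdl1 at 14 days from -0.3404 to 0.1822. After distal amputation, the 12 to 14 day change ran from -0.1063 to 0.3556 for Grem1, from -0.196 to 0.0088 for Fst and from -0.1114 to 0.1275 for Id1, and the 14 to 21 day change of Smad7 from -0.0088 to 0.1602. After proximal amputation, the 12 to 14 day change ran from -0.6591 to 0.0181 for Grem1 and from -0.1097 to 0.0471 for Id3, and the 12 to 21 day change of Bambi from -0.0883 to 0.1872. The level difference of Grem1 in the 12 to 21 day change ran from -0.2207 to 0.4565.

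Replicate numbers did not pair the libraries throughout: 9 of 36 same-numbered pairs had deviations correlated over 0.1 (-0.194 to 0.702). Between 12 and 14 days after proximal amputation the correlations were 0.118, 0.284, 0.702 and -0.001 for replicates 1 to 4. Partial pairing there remains possible, and what these libraries share was not tested. The replicate block ended 2 calls, Nog at 14 days (0.63) and 21 days (0.53), and made 4: Smad7 between levels at 12 days (0.30), and Chrdl1 from 12 to 14 days (-0.98) and from 14 to 21 days (-0.90) after proximal amputation and in the level difference of the 12 to 21 day change (1.41). Depth is unknown, and no alternative bears on it.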
